A study of Mus musculus with 2 samples.

Results

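The genes described here encode cytosolic ribosomal proteins and the factors that drive translation, measured in mouse splenic CD4+ alpha beta T cells. Members were all probes whose single annotated gene symbol begins with Rpl or Rps and a digit, or with Eif or Eef, leaving out the Rps6k kinases. This gave 66 genes of 4331 named genes, each with 1 probe. They are 25 large subunit genes, 18 small subunit genes and 23 translation factor genes. The annotation used here holds 53, 34 and 72 protein-coding symbols that fit the same rule, so each group was sampled only in part. A probe annotated to several Eif symbols was left out, as were 3 Rps6k probes.

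Total RNA of wildtype cells was hybridised directly against RNA of LatY136F cells, which carry a tyrosine-to-phenylalanine substitution in the adaptor Lat of the T cell receptor. Both kinds of cell were taken from spleen with anti-CD4 beads and a cell sorter, per the labels. Of the 2 arrays, array 1 had the wildtype sample in channel 1 and the LatY136F sample in channel 2, with the channels exchanged on array 2. The sources used here give no strain, age, number of mice or number of RNA extracts, so the pair was counted as 1 biological comparison and no test was made.

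Values are log2 ratios with LatY136F as numerator and wildtype as denominator, which is their likely direction. The deposited columns correlated at -0.21 over all probes, so array 2 was turned. That channel 2 is the numerator is an assumption, checked only by Th2 genes, which are known to be high in LatY136F T cells. Under it Gata3, the Th2 transcription factor, gave 2.95 and 2.91. The Th2 cytokine Il13 gave 3.67 and 3.12, while the Th2 cytokine Il4 gave 1.41 and -0.97. If the opposite reading holds, every lower gene here is higher. The deposited ratios were read as log10, which is likely from a highest value of exactly 2 on array 1 and not certain. A mean of both arrays is given ± the distance of either array from it, and this distance may hold technical error only. A ratio gives no level, so the cell type could not be checked by its markers' abundance, and no gene's level is set against another's. In such bulk RNA, fewer cells of a type and less RNA per cell cannot be told apart.

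The ribosome is built from a small subunit, which binds and decodes the messenger, and a large subunit, which forms the peptide bond. Initiation factors (eIF) bring the messenger, the initiator tRNA and the subunits together, and elongation factors (eEF) carry aminoacyl-tRNA in and move the ribosome along. Many ribosomal protein messengers begin with a terminal oligopyrimidine (TOP) tract, a C followed by further pyrimidines, through which growth signals adjust their translation. T cells enlarge their translation machinery when they are activated.

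Start sites are shown first because the TOP tract is a feature that ribosomal proteins and some factors share and that the symbol rule did not use. Of the 66 members, 55 had a RefSeq promoter entry (GRCm38.p6), 8 of them with several starts. Each line gives 30 bases, 15 before the annotated start and 15 from it on. Capitals mark every C followed by at least 4 bases that are each C or T, on the strand of the gene. The genes shown include the lowest of each subunit, members with ratios near 0, and elongation and initiation factors for contrast. Rps18 and Rpl15, each with a tract, are shown although they are not the lowest of their subunits. Lower genes of the same subunits left out include Rps15, without a tract, and Rpl12 and Rpl13, with one. The windows shown are thus a selection, and the shares below them cover all member starts.
Rps15a, chr7:118116133-118116162, minus strand: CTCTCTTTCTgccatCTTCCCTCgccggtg
Rps4x, chrX:102189377-102189406, minus strand: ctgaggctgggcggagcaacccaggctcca
Rps3a1, chr3:86142654-86142683, minus strand: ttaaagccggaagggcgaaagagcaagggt
Rps18, chr17:33955651-33955680, minus strand: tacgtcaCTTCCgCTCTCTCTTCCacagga
Rps12, chr10:23787195-23787224, minus strand: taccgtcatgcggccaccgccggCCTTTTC
Rpl28, chr7:4792950-4792979, plus strand: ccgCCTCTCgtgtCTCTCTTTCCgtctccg
Rpl15, chr14:18270972-18271001, minus strand: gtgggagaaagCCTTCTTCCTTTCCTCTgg
Rpl7a, chr2:26910792-26910821, plus strand: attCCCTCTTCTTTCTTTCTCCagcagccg
Eef1a1, chr9:78481710-78481739, minus strand: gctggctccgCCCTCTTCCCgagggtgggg
Eef1b2, chr1:63176816-63176845, plus strand: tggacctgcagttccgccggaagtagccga
Eef2, chr10:81176616-81176645, plus strand: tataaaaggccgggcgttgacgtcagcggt
Eif4a1, chr11:69672409-69672438, minus strand: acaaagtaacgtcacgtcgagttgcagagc
A tract lay in the 30-base window of 24 of 40 ribosomal protein starts (60%), of 9 of 25 factor starts (36%) and of 36.4% of all 32851 promoters. On the opposite strand the same search matched 27.5% of ribosomal protein windows, 44% of factor windows and 40.8% of all windows. Exactly at the annotated start, a tract stood at 6 of the 40 ribosomal protein starts (15%), at 1 of the 25 factor starts (4%) and at 2.51% of all promoters. Annotated starts can be some bases off, and a match is a description of the letters, not a shown TOP messenger.

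Ribosomal protein genes were lower in LatY136F cells almost throughout, while translation factors stayed close to the middle of all genes. Of 43 ribosomal protein genes, 42 were below 0 on both arrays, against 25.5% of all genes. At least 1.5-fold lower on both arrays were 21 of the 43 (48.8%), against 2.93% of all genes, and none was at least 1.5-fold higher, against 7.83%. The median was -0.63 (-0.63 on array 1 and -0.69 on array 2), which is 1.55-fold lower, beside a median of 0.00 over all genes. The 23 factor genes had a median of -0.11, with 1 gene (4.35%) at least 1.5-fold lower and none higher, a share of lower genes near that of all genes. Of the 23, 8 were below 0 on both arrays and 4 above 0 on both, against 25.5% and 30.3% of all genes. Array 1 gave -0.18 for them and array 2 gave 0.02, so the factor group as a whole has no direction.

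**Figure D1:**
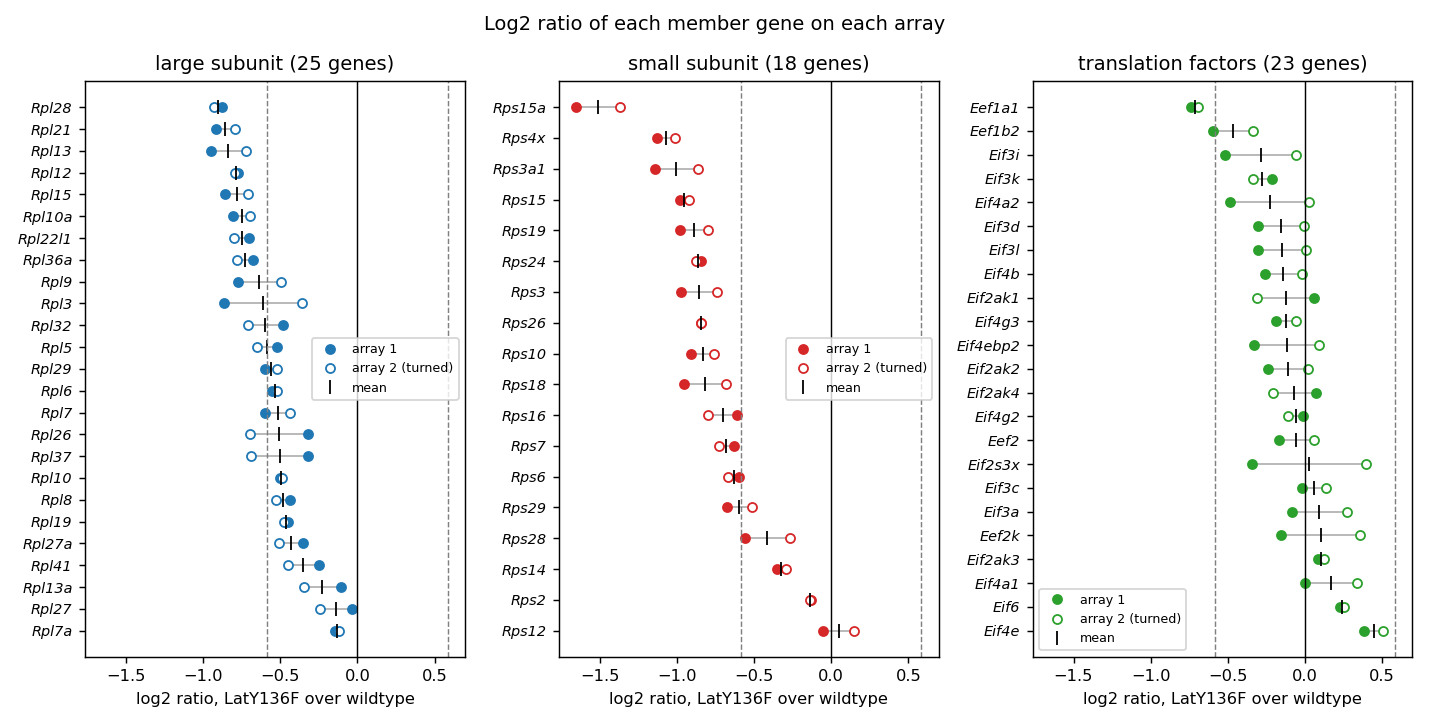
Log2 ratio of LatY136F over wildtype (x axis) for each member gene (rows), in panels for the large subunit, small subunit and translation factors; filled points are array 1, open points array 2 after turning, black ticks their mean, grey lines join the arrays, and dashed lines mark 1.5-fold. All ribosomal protein genes except Rps12 lie left of 0 on both arrays, while the factors lie on both sides of 0.

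The small subunit showed the lowest values. Of its 18 genes, 13 were at least 1.5-fold lower on both arrays (72.2%), and 2, Rps15a and Rps4x, at least 2-fold lower, against 0.97% of all genes. No member of any group was at least 2-fold higher, against 4.2% of all genes. The group's median was -0.82, which is 1.77-fold lower, with -0.84 on array 1 and -0.75 on array 2. Means ran from -1.51 to 0.05.

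Rps15a, a protein of the small subunit, gave -1.65 on array 1 and -1.37 on array 2. Its mean of -1.51 ± 0.14 (2.85-fold lower) was the lowest of all members, and 26 of the 4331 genes were lower still. Rps4x, encoded on the X chromosome, gave -1.13 and -1.01, a mean of -1.07 ± 0.06 and 2.10-fold lower. Rps3a1 gave -1.14 and -0.86, so with a mean of -1.003 ± 0.14 it reached 2-fold on array 1 only. Together with Rps15 they had lower means than any large subunit gene.

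Rps15, which lies near the decoding site, gave -0.98 and -0.92 (-0.95 ± 0.03). Rps19, whose human counterpart is mutated in Diamond-Blackfan anaemia, gave -0.98 and -0.80 (-0.89 ± 0.09). Rps24, another gene of that disease, gave -0.84 and -0.88 (-0.86 ± 0.02). The other genes past 1.5-fold on both arrays were Rps3, Rps26, Rps10, Rps18, Rps16, Rps7 and Rps6, with means from -0.86 to -0.63. Rps6 is the protein that S6 kinases phosphorylate, and it stood at -0.63 ± 0.03.

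A few small subunit genes departed from the rest. Rps29 stood at -0.59 ± 0.08 and Rps28 at -0.41 ± 0.15, each below 0 on both arrays and short of 1.5-fold on at least 1 of them. Rps14, the gene lost in the human 5q- syndrome, stood at -0.32 ± 0.03. Rps2, which helps to form the messenger entry channel, gave -0.13 and -0.14. Rps12, named after its value was seen, was the only ribosomal protein gene among the members with opposite signs, at -0.05 on array 1 and 0.15 on array 2.

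The large subunit was lower too, by a smaller amount. All 25 genes were below 0 on both arrays, and 8 of them (32%) were at least 1.5-fold lower on both. The median was -0.56, which is 1.48-fold lower, with -0.55 on array 1 and -0.53 on array 2. Means ran from -0.90 to -0.13, a narrower range than in the small subunit.

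Rpl28 had the lowest mean of the large subunit, at -0.88 and -0.93 (-0.90 ± 0.03, 1.87-fold lower). Rpl21 gave -0.92 and -0.80 (-0.86 ± 0.06), and Rpl13 gave -0.95 and -0.72 (-0.84 ± 0.11). Rpl12, a protein at the base of the stalk that recruits translation factors, gave -0.77 and -0.80 (-0.79 ± 0.01). Rpl15 stood at -0.78 ± 0.08 and Rpl10a, part of the mobile L1 stalk, at -0.75 ± 0.06. The remaining genes past 1.5-fold on both arrays were Rpl22l1, the paralogue of Rpl22, and the X-linked Rpl36a, with means of -0.75 and -0.73.

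At the upper end of the large subunit stood Rpl7a (-0.14 on array 1 and -0.12 on array 2), Rpl27 (-0.03 and -0.24) and Rpl13a (-0.11 and -0.35). Rpl13a also acts outside the ribosome in translational silencing of inflammatory messengers. Rpl41, the smallest ribosomal protein, stood at -0.35 ± 0.10. The arrays disagreed most for Rpl3, which lines the peptidyl transferase centre, with -0.87 and -0.36. Rpl5, which binds the ribosomal 5S RNA, stood at -0.59 ± 0.06, past 1.5-fold on array 2 only.

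The median of large subunit genes was 0.26 above that of small subunit genes, by 0.29 on array 1 and 0.22 on array 2. With means of the members in place of medians the gap was smaller, at -0.57 for the large and -0.73 for the small subunit. The groups overlapped: 3 of the 25 large subunit genes lay below the small subunit median, and 4 small subunit genes lay below the lowest large subunit gene. Genes are not replicates and there is 1 biological comparison, so the difference between the subunits carries no test.

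Within the ribosomal proteins the arrays kept much the same order. Over the 43 genes the arrays correlated with r = 0.82 (Pearson) and rho = 0.77 (Spearman), beside 0.33 and 0.16 over all 4331 genes. These are descriptions: the points share 2 arrays that may hold the same RNA extracts. In the small subunit r was 0.92 over 18 genes and in the large subunit 0.65 over 25. The distance of either array from their mean had a median of 0.07 for ribosomal proteins, 0.13 for factors and 0.15 for all genes.

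**Figure D2:**
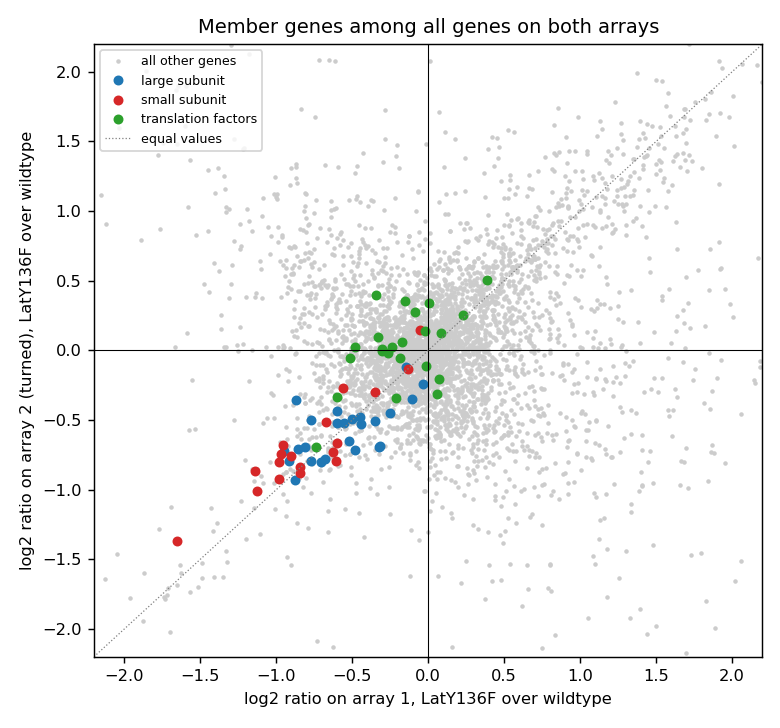
Log2 ratio of LatY136F over wildtype on array 1 (x axis) and on array 2 after turning (y axis), 1 point a gene, with large subunit, small subunit and translation factor genes coloured, all other genes grey and the line of equal values dotted; 102 of 4265 other genes lie outside the axes. Ribosomal protein genes gather near the line of equal values in the lower left, and factors lie around the origin.

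Among all genes ordered by mean ratio, 36 of the 43 ribosomal protein genes fell in the lowest 10%. The tail of all genes reached far lower, to -3.26, so ribosomal proteins formed a group of moderate and even size, with 28 of 43 between -1 and -0.5. Probes annotated to a RefSeq messenger accession (31 genes) and to other accessions (12 genes) had medians of -0.63 and -0.62. Ribosomal protein genes have many processed pseudogenes of near-identical sequence, so a probe's assignment to 1 gene is uncertain.

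Translation factors, taken by their roles, showed 1 gene past the threshold, in elongation. Eef1a1, which delivers aminoacyl-tRNA to the ribosome, gave -0.74 and -0.69 (-0.72 ± 0.02, 1.64-fold lower). Eef1b2, part of the exchange factor that recharges it with GTP, gave -0.60 and -0.34 (-0.47 ± 0.13). Eef2, which moves the ribosome by one codon, gave -0.17 and 0.06, so it has no direction. Its inhibitory kinase Eef2k also had opposite signs, at -0.15 and 0.36.

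The eIF4 group binds and unwinds the cap end of the messenger. Eif4e, the cap-binding protein, had the highest mean of all 66 members, at 0.38 and 0.51 (0.45 ± 0.06, 1.36-fold higher), short of the 1.5-fold threshold. Eif4a1, the helicase, gave 0.00 and 0.34. Its paralogue Eif4a2, named after its value was seen, gave -0.48 and 0.03. Eif4b, which stimulates the helicase, stood at -0.14 ± 0.12. The scaffolds Eif4g3 and Eif4g2 lay at -0.12 and -0.06. Eif4ebp2, an inhibitor that sequesters the cap-binding protein, gave -0.33 and 0.09.

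The eIF3 complex holds the small subunit during initiation. Its 6 measured subunits had a median of -0.15, from -0.29 for Eif3i to 0.09 for Eif3a. Eif3i gave -0.52 and -0.06, Eif3k gave -0.21 and -0.34, and Eif3d gave -0.31 and -0.01. None reached 1.5-fold on both arrays, and 3 of the 6 had opposite signs on the arrays. Eif2s3x, a subunit of the factor that brings the initiator tRNA, gave -0.34 and 0.40.

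The 4 kinases that phosphorylate eIF2 and so limit initiation under stress had a median of -0.09. Eif2ak3, the kinase of endoplasmic reticulum stress, gave 0.09 and 0.13. Eif2ak1 (haem-regulated) gave 0.06 and -0.31, Eif2ak2 (double-stranded RNA) -0.24 and 0.02, and Eif2ak4 (amino acid shortage) 0.07 and -0.21. Eif6, which keeps free large subunits from joining small ones, gave 0.23 and 0.25. Kinases and inhibitors are members by symbol and are not translation factors in the strict sense.

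The ribosomal protein median lay 0.53 below the factor median, by 0.44 on array 1 and 0.71 on array 2. Only Eef1a1 among the 23 factors lay below the ribosomal protein median, and 33 of the 43 ribosomal protein genes lay below Eef1b2, the second lowest factor. For 19 of the 23 factors array 1 gave a lower value than array 2, against 24 of 43 ribosomal protein genes and 2168 of all 4331. Whether dye or RNA gave this gap was not tested.

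Ratios of ribosomal protein genes were also set against the start windows shown above. The 23 genes with a tract in the window had a median of -0.75 and the 12 without one -0.55, and both sets ran across most of the range. The medians were -0.70 and -0.54 on array 1 but -0.72 and -0.67 on array 2, so the gap was small on array 2. Genes without a tract included Rps4x and Rps3a1, and genes with one included Rps12 at the upper end. Among factors the medians were -0.10 over 8 genes with a tract and -0.11 over 12 without. Of the factors listed as known TOP messengers, Eef1a1 and Eif4b held a tract in the window, but Eef1b2 and Eef2 did not. The split is therefore by the letters at the annotated start, not by TOP status.

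Upstream sequence was searched for motifs known from ribosomal protein promoters, chosen with the ratios known. They were the ETS core CCGGAA and the YY1 motif AANATGGC, each on both strands, in 300 bases from 250 before to 50 after the start. The share counts promoters with at least 1 match, and matches may overlap. CCGGAA was found in 47.5% of 40 ribosomal protein promoters, in 40% of 25 factor promoters and in 14.9% of all promoters. AANATGGC was found in 20%, 24% and 6.05%. Below, 150 bases up to the start show a match in a lower small subunit gene, a lower large subunit gene and a factor near 0, with matches in capitals.
Rps18, chr17:33955666-33955815, minus strand: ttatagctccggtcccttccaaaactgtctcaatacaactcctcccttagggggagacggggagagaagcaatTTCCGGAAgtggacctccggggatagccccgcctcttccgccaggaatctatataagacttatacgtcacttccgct
Rpl28, chr7:4792815-4792964, plus strand: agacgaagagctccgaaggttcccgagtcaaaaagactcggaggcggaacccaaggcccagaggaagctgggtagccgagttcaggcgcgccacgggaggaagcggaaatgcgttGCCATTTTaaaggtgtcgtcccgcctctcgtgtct
Eif3l, chr15:79075073-79075222, plus strand: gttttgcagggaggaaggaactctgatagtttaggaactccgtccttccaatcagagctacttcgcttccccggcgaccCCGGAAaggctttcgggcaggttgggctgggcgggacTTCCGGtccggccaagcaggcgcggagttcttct
Rps18 stood at -0.82 ± 0.14 and Eif3l at -0.15 ± 0.16, and both hold the ETS core, so the core (in Rps18 as an overlapping match on both strands) is found in members on either side of the 1.5-fold threshold.

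Other genes of the same machinery were compared through lists. Cytosolic ribosomal proteins outside the symbol rule (4 measured) had a median of -0.03, with none past 1.5-fold on both arrays. Rpsa, a small subunit protein, stood at -0.49 ± 0.09 and Fau, the precursor of another, at -0.09 ± 0.01. The stalk proteins Rplp0 (-0.43 and 0.48) and Rplp1 (-0.46 and 0.69), named after their values were seen, had opposite signs.

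Mitochondrial ribosomal proteins, which translate the mitochondrial genome, had a median of -0.14 over 9 genes, with none past 1.5-fold on both arrays. Mrpl9 stood lowest at -0.38 ± 0.06, followed by Mrps31 at -0.25 ± 0.06. Ribosome biogenesis genes had a median of -0.13 over 19, with 1 at least 1.5-fold lower and none higher, against 2.93% and 7.83% of all genes. That gene was Npm1, a nucleolar chaperone (-0.86 and -0.61), and Nsa2, a large subunit assembly factor, followed at -0.72 ± 0.15. The cytosolic ribosomal protein median of -0.63 lay below the medians of both lists, while single biogenesis genes such as Npm1 and Nsa2 had lower means.

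Messengers known to carry a TOP tract that do not encode ribosomal proteins had a median of -0.29 over 10 genes, 4 of them members here. Of the 10, Eef1a1 and Npm1 were at least 1.5-fold lower on both arrays (20%, against 2.93% of all genes). Vim, an intermediate filament gene, was higher at 2.06 ± 0.13. Aminoacyl-tRNA synthetases lay slightly above 0, with a median of 0.17 over 4 genes, Vars at 0.41 ± 0.01 and Lars at 0.27 ± 0.03. Other translation proteins had a median of -0.10 over 4, with the poly(A)-binding protein Pabpc1 at -0.35 on each array and the recycling factor Abce1 at -0.18 ± 0.06. The mTORC1 and S6 kinase list had a median of -0.01 over 7. In it Myc, a transcription factor that drives ribosome production, stood at -0.51 ± 0.06 and the mTORC1 activator Rheb at 0.39 ± 0.11.

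**Figure D3:**
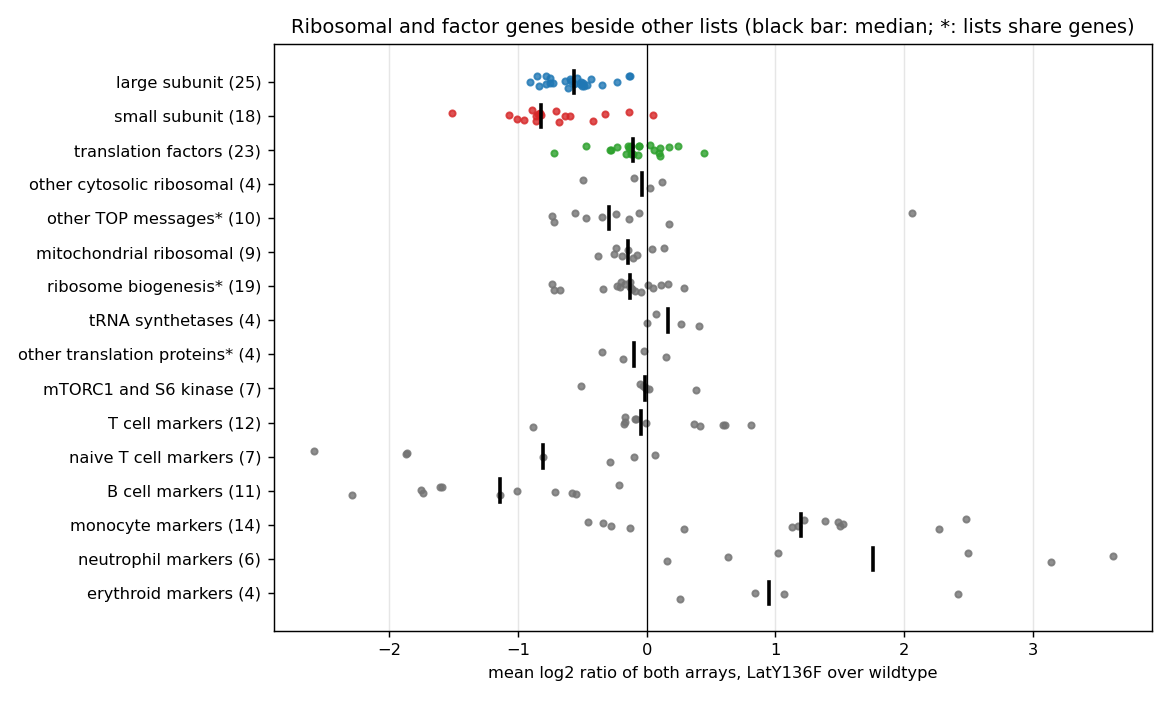
Mean log2 ratio of both arrays, LatY136F over wildtype (x axis), for each gene (points) of the ribosomal and factor groups, of related lists and of cell type marker lists (rows, measured genes in brackets), with black bars at the medians; point height within a row has no meaning and starred lists share genes. The medians of both ribosomal subunits lie below those of the mitochondrial ribosomal, biogenesis and synthetase lists. The medians of the B cell and monocyte marker lists lie further from 0, below and above it, while single genes of the lists overlap.

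Markers of other cell types, and of T cells and naive T cells, were also listed beside the ribosomal protein genes. Of all genes, 2.93% were at least 1.5-fold lower on both arrays and 7.83% at least 1.5-fold higher. Of 11 B cell markers, 7 were at least 1.5-fold lower on both arrays and none higher, with a median of -1.14 and a range from -2.29 to -0.21. Of 7 naive T cell markers 4 were lower, with a median of -0.80 and a range from -2.59 to 0.07. Monocyte and macrophage markers had 9 of 14 higher (median 1.20, from -0.45 to 2.48), neutrophil markers 3 of 6 (median 1.76) and erythroid markers 2 of 4 (median 0.95). T cell markers had a median of -0.04 over 12, with 1 at least 1.5-fold higher and none lower. The part of these markers' cells in the ribosomal protein ratios was not tested.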

How the data were processed

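The table that the authors deposited holds 1 log ratio of the 2 channels per probe and array for 8014 probes, read here as log10. The sources used here do not give its base, direction, background correction or normalization, and the scanner signals were not analysed here. As deposited, the columns had medians of -0.0033 (array 1) and 0.0070 (array 2). Ratios were multiplied by 3.32 to log2, array 2 was multiplied by -1, each array was centred on its median, and probes of a gene were averaged. One symbol was annotated to 4654 probes, several to 73 and none to 3287. A gene was called when it passed 1.5-fold (or 2-fold) the same way on both arrays. Precision is limited by the number of arrays. The calling rule was tested on simulated data. Named genes were those called 2-fold, the 6 lowest and 4 highest of each group with the same sign on both arrays, factors of central roles, and the 2 furthest of each related list. Other genes printed with a value, such as Rpl3, Rpl5, Rps6, Rps18, Eif4g2, Eif4g3, Eif2s3x, Eif3a and Eif3l, and the remaining genes past 1.5-fold, were chosen after their values were seen. Members, lists and motifs were chosen with earlier results of these data known. Sequences are RefSeq's (GRCm38.p6). Python 3.11.15, pandas 2.3.3 and numpy 2.4.6 were used.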

Additional observations from a re-analysis of the deposited data

How the results depend on the processing

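Either array alone gave medians of -0.55 to -0.53 for the large subunit, -0.84 to -0.75 for the small subunit and -0.18 to 0.0215 for factors, and 1 to 2 factor genes at least 1.5-fold lower. The mean of small subunit genes was -0.73. At a lower threshold than 1.5-fold on both arrays, 19 large subunit genes, 14 small subunit genes and 2 factors were lower. At the same threshold 1 factor was higher. The share of all genes past this lower threshold was not counted, so these counts have no background to be set against. Read as log2, the table would give medians of -0.17 and -0.25 for the large and small subunit, group differences of 0.079 and -0.16, and 0 members at least 1.5-fold or 2-fold lower, so the folds need the log10 reading. Turning the sign gave medians of 0.56, 0.82 and 0.11, differences of -0.26 and 0.53, 0 members lower in any group, 1 factor at least 1.5-fold higher, and 2 members at least 2-fold higher, Rps15a at 1.51 and Rps4x at 1.07. Leaving out centring, scaling the arrays, leaving out probes at exactly 0, and taking single or strongest probes kept each median within the SD between arrays and each count within 1.5 times. For the 36 member genes the rule named, 6 of 180 alternatives other than the turned sign changed a sign, each in a different factor gene. These were Eef2, Eef2k, Eif2ak1, Eif2ak2, Eif2ak4 and Eif4ebp2, named for their roles, whose arrays already disagreed in direction. Each change came from leaving out 1 array. All other named genes were picked because their arrays agreed in direction, so leaving out an array could not turn them. The count of changes was therefore set by the selection and does not measure stability. No paired analysis was possible because the labels form a single group, the 2 arrays of a dye-reversal pair.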
